A study of Rattus norvegicus with 12 samples.

Results

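The glycolytic enzymes described here are some of the genes that carry glucose carbon between the phosphofructokinase step and pyruvate, measured in rat left ventricle after treadmill training. They were taken from a list of 10 genes (Pfkm, Pfkl, Pfkp, Aldoa, Tpi1, Pgk1, Pgam1, Pgam2, Eno3 and Pkm) as every probe set whose annotation gives exactly 1 gene symbol on that list. This gave 15 probe sets for 9 genes, of 4736 genes so named on the array. Tpi1 dropped out, because the probe set that carries its symbol names other genes too. Expression was measured on 1 single-channel array per sample, with 6 Exercised samples (numbers 1, 4, 5, 7, 8 and 9 in their titles), from ventricles taken after 7 weeks of running, and 6 Sedentary samples (13, 16, 17, 21, 23 and 24). The sources used here do not give the strain, sex or age of the rats, or the time between the last run and sampling. Nor do the labels tie each number to its own rat, so the p-values cover only the variation among these 12 samples, some of which may be technical.

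Glycolysis splits glucose into pyruvate in the cytosol and yields ATP without oxygen. Phosphofructokinase is its committed step, and aldolase, phosphoglycerate kinase, phosphoglycerate mutase, enolase and pyruvate kinase follow in that order. Several steps have a gene used mainly in muscle (Pfkm, Pgam2 and Eno3) beside genes used in most tissues (Pfkl, Pfkp and Pgam1), while Aldoa, Pgk1 and Pkm serve muscle and many other tissues. The adult heart draws most of its ATP from fatty acids and raises its use of glucose and lactate under load.

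The promoters of the 2 mutases and of the muscle and liver phosphofructokinases are shown because these isoforms are set against each other below. Each runs 5′ to 3′ from 250 bases before to 50 bases after the RefSeq start of the gene (build GRCr8), which is chr14:84897825-84898124 on the minus strand for Pgam2, chr1:250672902-250673201 on the plus strand for Pgam1, chr7:131113849-131114148 on the plus strand for Pfkm and chr20:10663715-10664014 on the plus strand for Pfkl. Capitals mark ACGTG, the core of the hypoxia response element, and CTATTTTTA, a form of the site of the muscle factor MEF2, on either strand.
Pgam2: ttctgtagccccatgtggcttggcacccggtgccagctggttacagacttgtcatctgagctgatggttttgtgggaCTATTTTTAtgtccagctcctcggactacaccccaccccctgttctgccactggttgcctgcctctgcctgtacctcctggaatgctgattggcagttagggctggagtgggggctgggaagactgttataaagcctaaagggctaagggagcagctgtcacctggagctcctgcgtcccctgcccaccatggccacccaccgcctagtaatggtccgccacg
Pgam1: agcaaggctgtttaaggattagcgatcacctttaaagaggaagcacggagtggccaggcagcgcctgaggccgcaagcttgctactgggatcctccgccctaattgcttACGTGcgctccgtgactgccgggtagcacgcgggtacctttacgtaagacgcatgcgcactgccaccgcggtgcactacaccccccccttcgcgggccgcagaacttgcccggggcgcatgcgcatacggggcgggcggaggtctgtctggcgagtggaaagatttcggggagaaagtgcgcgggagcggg
Pfkm: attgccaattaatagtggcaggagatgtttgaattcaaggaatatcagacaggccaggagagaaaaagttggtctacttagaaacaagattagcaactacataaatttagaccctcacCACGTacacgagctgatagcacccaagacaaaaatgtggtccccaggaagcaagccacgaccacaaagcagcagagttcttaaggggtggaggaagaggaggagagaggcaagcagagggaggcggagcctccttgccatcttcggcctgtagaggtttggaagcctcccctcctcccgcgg
Pfkl: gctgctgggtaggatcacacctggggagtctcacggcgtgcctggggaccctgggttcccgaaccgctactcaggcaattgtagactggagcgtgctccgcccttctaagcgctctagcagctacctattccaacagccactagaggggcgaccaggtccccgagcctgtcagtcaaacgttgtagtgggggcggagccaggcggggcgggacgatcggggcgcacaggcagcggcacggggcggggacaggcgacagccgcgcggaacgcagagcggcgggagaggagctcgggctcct
Of 33469 RefSeq windows of this length, 19.3% hold ACGTG and 0.514% hold CTATTTTTA. The motifs were chosen with the sequences in view. Pgam2 had the MEF2 form at position -173 from its start and no ACGTG, and Pgam1 and Pfkm had 1 ACGTG each. The Pfkl window held neither. The E-box CANNTG, present in 72.1% of all windows, occurred at 5 places in the Pgam2 window and at 2 in the Pfkl window, and it did not occur in the Pgam1 and Pfkm windows. In all, 10 windows of 8 of the genes were found, since Aldoa has several starts, and 3 held ACGTG, 6 the E-box and 1 the MEF2 form. A match is a run of letters, not a site shown to be bound.

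The arrays were on a common scale, with median intensities of 840 to 875. Sedentary 17 stood apart, with a median correlation of 0.964 with the other arrays over the 6555 tested probe sets, against 0.986 to 0.990 for each of the other 11. Log2 differences of members and listed genes that moved by over 1.5 times without it are given both ways where they are described. The haemoglobin gene Hbb read 15784 (Exercised 4) and 8786 (Exercised 5) where the remaining 10 arrays read 28362 to 37794. The 9 measured cardiomyocyte markers, among them Myh6 and Myl2, were at 0 on no array and had a summed intensity of 366697 to 392403 on Exercised and 360745 to 395612 on Sedentary arrays. The summed intensity of 10 fibroblast markers was 54434 to 81614 on Exercised and 42785 to 58415 on Sedentary arrays, and 8 of the 9 tested were higher by sign in Exercised samples. The 6 genes listed as smooth muscle markers summed to 20239 to 25493 on Exercised and 18430 to 21001 on Sedentary arrays (5 of 5 tested higher by sign, Des among them). Des alone, at 11437 to 19475 over all arrays, was the largest part of that sum on each. The sum is thus mainly a reading of this gene and is not read as an amount of smooth muscle. The 3 erythroid markers summed to 13476 to 38361 on Exercised and 37211 to 42376 on Sedentary arrays (3 of 3 lower). Of 8 tested macrophage and leukocyte markers 3 were higher and 5 lower by sign, and Lyz2, one of the 3, was the only marker of any list that passed (3274 to 9078 on Exercised and 2000 to 2854 on Sedentary arrays, limma adjusted p = 0.0404). The 4 atrial markers summed to 24360 to 43734 on Exercised and 22481 to 51178 on Sedentary arrays, 2 higher and 2 lower by sign. Sedentary 16 was the highest array for Myl7, at 8652 against at most 1923 on the other 11, and for Myl4, at 2117 against at most 1189. The part of these markers in the values below was not tested, and in whole tissue fewer cells of a type and less RNA per cell cannot be told apart.

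No glycolytic enzyme was shown to change with training. Of the 15, 0 had a two-sided limma p at or under 0.05 after Benjamini-Hochberg adjustment over all tested probe sets, where 0.32% of all tested probe sets did (0.275% higher and 0.0458% lower). At an unadjusted p under 0.05 there were 2, Pfkl higher and Pgam2 lower, against 16.2% of all tested probe sets (9.26% higher and 6.91% lower). The exact permutation test gave 2 members before adjustment, where 17.6% of all tested probe sets had an unadjusted p under 0.05. After adjustment it gave 0 members, but it also gave 0 of all 6555 tested probe sets, so that count says nothing about the members. By sign, 9 of the 15 were higher and 6 lower in Exercised samples, with a median log2 difference of 0.03, against 0.003 and 51.4% higher over all tested probe sets. Exercised and Sedentary values overlapped for every member probe set, whereas 2.07% of all tested probe sets did not overlap. Each 95% interval holds for 1 probe set at a time, not for the 15 jointly. Over the 15 probe sets the intervals reached at most down to -0.29, for 1 probe set of Pfkm, and up to 0.53, for Eno3. These are fold changes of 0.816 and 1.44 on the log2(intensity + 363) scale used throughout, on which dim probe sets show too small a change.

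**Figure D1:**
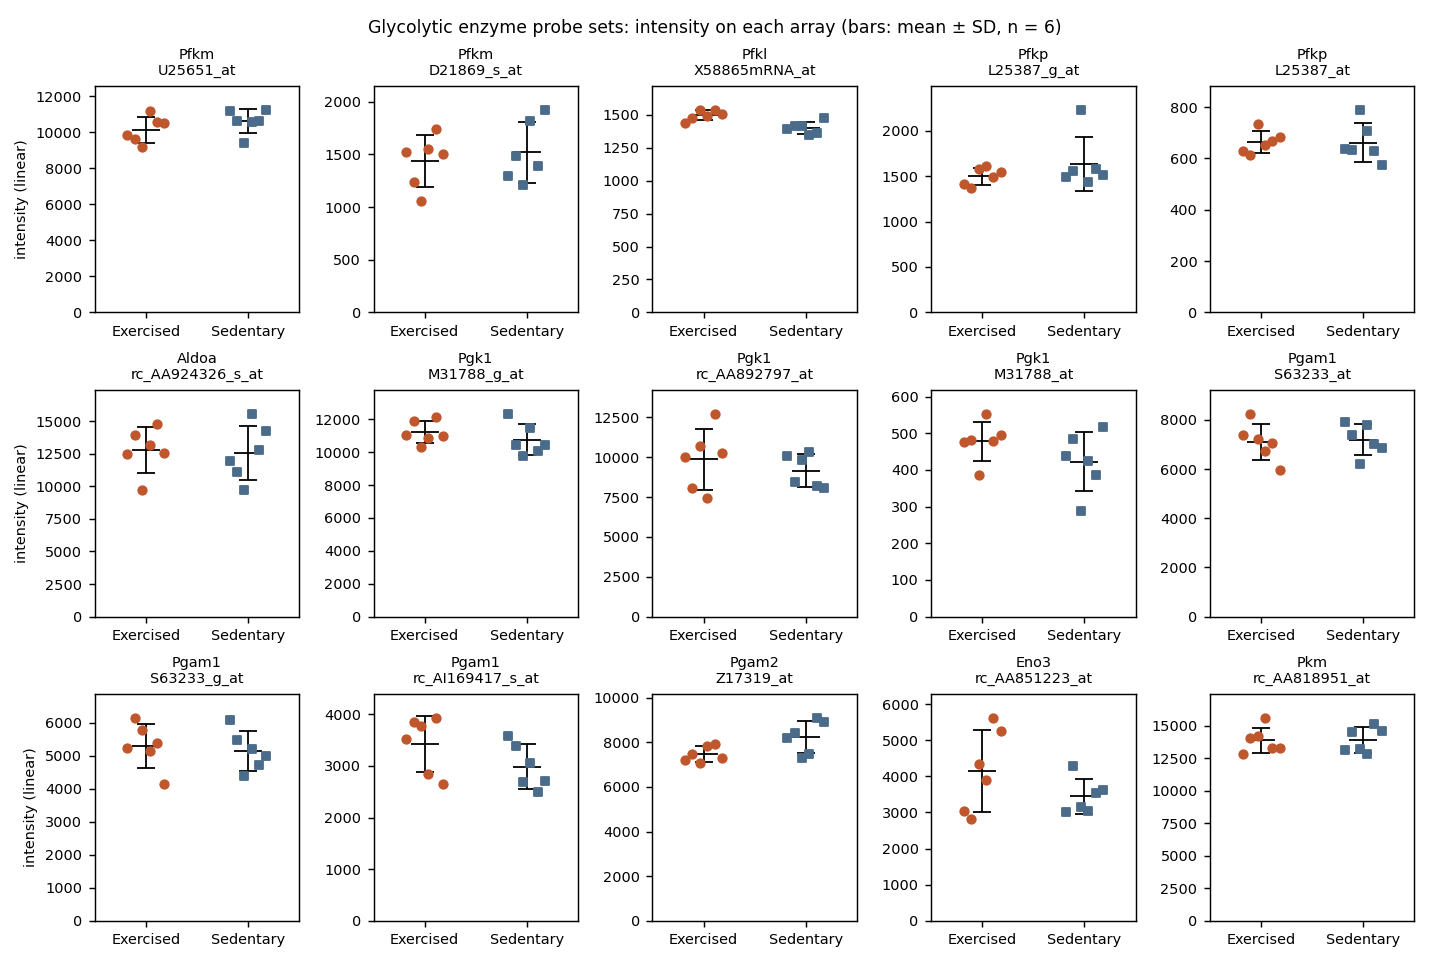
Intensity (vertical axis, linear, from 0) of each glycolytic enzyme probe set on the 6 Exercised arrays (circles, left) and the 6 Sedentary arrays (squares, right), with mean and SD. The groups overlap in all 15 panels, and 1 Sedentary array is far above the others for Pfkp L25387_g_at.

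Phosphofructokinase adds the phosphate that commits sugar to glycolysis, and its 3 genes differed in sign. Pfkl, the liver form, ran from 1437 through a median of 1499 to 1537 in Exercised samples, against 1345, 1402 and 1478 in Sedentary samples. The highest Sedentary array, number 24, lay above the 2 lowest Exercised ones, and all 6 Exercised values were above the Sedentary mean. The means were 1497 ± 38.8 and 1401 ± 47.3 (SD, n = 6 each), a log2 difference of 0.08 ± 0.034 (SE), with a limma p of 0.0423 and an adjusted p of 0.284. The exact permutation test gave 0.00649 before adjustment and 0.135 after it. Pfkl was steady between arrays of a group: its within-group SD was 0.035 on the log2 scale, and 1.04% of tested probe sets had a smaller one, against a median SD of 0.099.

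Pfkm, the form used in muscle, was slightly lower by sign on both of its probe sets. On U25651_at it had a lowest, median and highest intensity of 9166, 10179 and 11168 in Exercised samples, against 9400, 10629 and 11243 in Sedentary samples. Exercised 5 and Sedentary 17 were the lowest of their groups, and the ranges covered each other almost wholly. The log2 difference was -0.06 ± 0.059 (95% interval -0.19 to 0.06, limma adjusted p = 0.606). It was -0.10 (0.406) without Sedentary 17, -0.10 (0.347) with array weights and -0.14 (0.232) under quantile normalization, and -0.01 (0.95) without Exercised 4 and 5. The other probe set, D21869_s_at, gave -0.06 ± 0.107 (adjusted p = 0.776), with means of 1435 ± 247 in Exercised and 1519 ± 289 in Sedentary samples, and -0.11 (0.633) without Sedentary 17. Its sign turned without Exercised 5, at 0.003 (0.99).

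Pfkp, the platelet form, depended on Sedentary 17. On L25387_g_at the Exercised samples had 1371, 1519 and 1609 as lowest, median and highest intensity, and the Sedentary samples had 1437, 1536 and 2230. The 2230 was Sedentary 17, and the other Sedentary arrays reached at most 1581. The log2 difference was -0.09 ± 0.077 (limma adjusted p = 0.571) with all arrays and -0.01 (0.914) without Sedentary 17. The dimmer probe set L25387_at gave 0.004 ± 0.048 (adjusted p = 0.974), and 0.04 (0.646) without that array.

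Aldoa, the aldolase of muscle and of most other tissues, splits the phosphorylated sugar. It ranged from 9711 through 12860 to 14814 in Exercised samples and from 9739 through 12381 to 15544 in Sedentary samples. Exercised 5 and Sedentary 17 were lowest, and the groups covered the same range. The log2 difference was 0.03 ± 0.113 (95% interval -0.21 to 0.27, limma adjusted p = 0.912), and it was -0.04 (0.897) without Sedentary 17. With a within-group SD of 0.221, Aldoa varied more between arrays of a group than 95.1% of tested probe sets.

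Pgk1, phosphoglycerate kinase, makes the first ATP of the pathway. Its probe set M31788_g_at had 10335, 11024 and 12124 as lowest, median and highest intensity in Exercised samples, against 9790, 10456 and 12318 in Sedentary samples. The highest array of all was a Sedentary one, and 5 of 6 Exercised values were above the Sedentary mean. The log2 difference was 0.06 ± 0.062 (95% interval -0.07 to 0.19, limma adjusted p = 0.637). The probe set rc_AA892797_at gave 0.09 ± 0.114 (0.706), and M31788_at, which was dim at 478 ± 53.0 in Exercised and 423 ± 80.8 in Sedentary samples, gave 0.10 ± 0.066 (0.448). Without Sedentary 17, the lowest array for M31788_g_at and M31788_at, those differences were 0.03 (0.828) and 0.05 (0.657). The value of rc_AA892797_at ran from 0.01 (0.958) without Exercised 8 to 0.16 (0.496) without Exercised 7. All 3 differences were positive by sign with all arrays, and M31788_g_at was -0.02 under quantile normalization. The probe sets were not shown to follow each other from array to array, as given below.

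The mutases Pgam2, the muscle form, and Pgam1, the form of brain and most other tissues, move the phosphate within phosphoglycerate. Pgam2 had 7070, 7383 and 7927 as lowest, median and highest intensity in Exercised samples, against 7319, 8303 and 9072 in Sedentary samples. All 6 Exercised arrays were below the Sedentary mean, and Sedentary 17 and 21 fell inside the Exercised range. The means were 7465 ± 350 and 8228 ± 727 (SD, n = 6 each), a log2 difference of -0.13 ± 0.061 (95% interval -0.26 to -0.001), with a limma p of 0.0488 and an adjusted p of 0.305. The exact permutation test gave 0.0476 before adjustment and 0.278 after it. Without Sedentary 17 the difference was -0.16 (limma adjusted p = 0.182). It was -0.16 (0.134) with array weights, -0.19 (0.192) under quantile normalization and -0.10 (0.471) without Sedentary 23.

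Pgam1 was measured by 3 probe sets that differed in size and, for 1 of them, in sign. S63233_at had 5967, 7143 and 8233 as lowest, median and highest intensity in Exercised samples, against 6204, 7212 and 7932 in Sedentary samples, so the Exercised values spanned the Sedentary ones. Its log2 difference was -0.02 ± 0.076 (limma adjusted p = 0.912), and -0.06 (0.728) without Sedentary 17. S63233_g_at, from the same sequence, gave 0.04 ± 0.090 (0.843), and -0.002 (0.995) without that array. The probe set rc_AI169417_s_at gave 0.18 ± 0.105 (95% interval -0.05 to 0.40, adjusted p = 0.418), with means of 3426 ± 547 in Exercised and 2985 ± 431 in Sedentary samples. On that probe set Exercised 7 and 9 lay at 2847 and 2649, below the Sedentary mean, while the other 4 Exercised arrays lay above it. Without Exercised 4 and 5 the difference was 0.10 (limma adjusted p = 0.734).

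Eno3, the muscle enolase, had the largest difference and the widest spread of the 15 probe sets. It had 2818, 4120 and 5603 as lowest, median and highest intensity in Exercised samples, against 3018, 3349 and 4285 in Sedentary samples. Exercised 8, 9 and 5, at 5603, 5243 and 4353, were above every Sedentary array, and Exercised 4, at 2818, was below every one. The means were 4156 ± 1140 and 3442 ± 486 (SD, n = 6 each), a log2 difference of 0.22 ± 0.146 (95% interval -0.09 to 0.53, limma adjusted p = 0.468). Its within-group SD of 0.291 was above that of 98.4% of tested probe sets. Leaving out 1 array moved the difference between 0.13, without Exercised 8, and 0.31, without Exercised 4. With array weights it was 0.10 (limma adjusted p = 0.724).

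Pkm, the pyruvate kinase of muscle and most other tissues, makes pyruvate and the last ATP of the pathway. It had 12828, 13657 and 15565 as lowest, median and highest intensity in Exercised samples, against 12812, 13866 and 15165 in Sedentary samples. The groups covered the same range. The log2 difference was -0.004 ± 0.059 (95% interval -0.13 to 0.12, limma adjusted p = 0.981), and -0.02 (0.918) without Sedentary 17. Its M1 and M2 splice forms are not separated here.

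**Figure D2:**
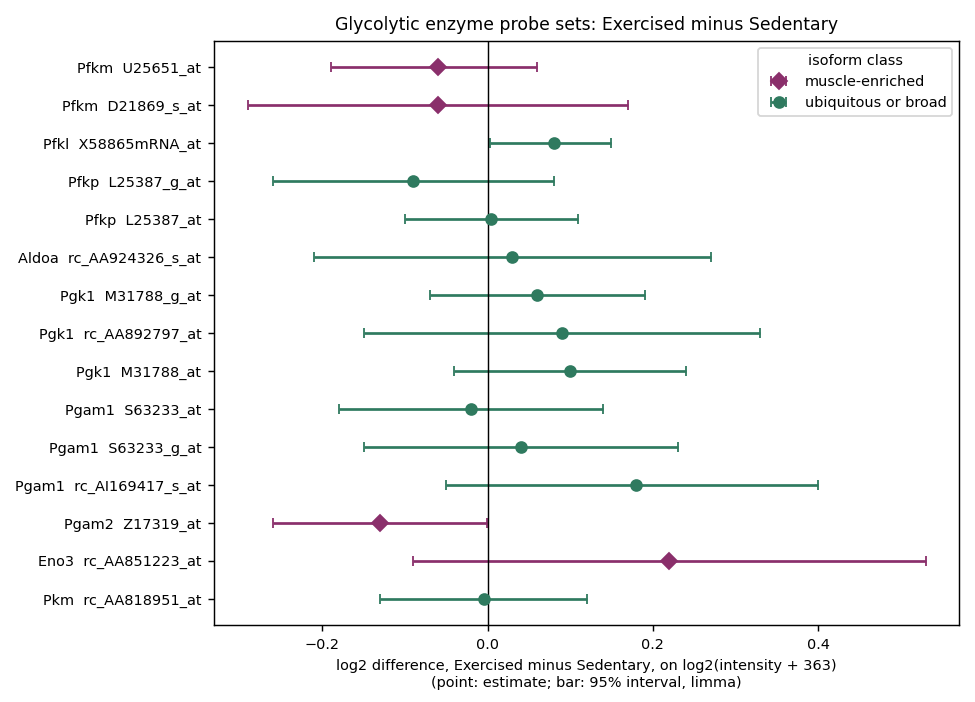
Log2 difference (horizontal axis, log2(intensity + 363) units, positive where Exercised was higher) of the 15 glycolytic enzyme probe sets with 95% limma intervals, coloured by isoform class. The intervals of Pfkl and Pgam2 end just short of 0, on opposite sides, and the interval of Eno3 is the widest.

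Probe sets of the same gene were compared across the 12 arrays with group means taken out, over 8 pairs. The 3 Pgam1 probe sets followed each other, with Pearson r of 0.78 to 0.91 and Spearman rho of 0.73 to 0.90. Their permutation p, adjusted over the 8 pairs, was 0.00176 to 0.0114 for r and 0.0028 to 0.0366 for rho, and r was 0.68 to 0.77 after the 2 arrays farthest from the median were left out. The Pfkm pair had r = 0.68 and rho = 0.61 (unadjusted permutation p = 0.021 and 0.0514, adjusted 0.042 and 0.103). Its r was 0.36 without Exercised 5 and Sedentary 17, the 2 arrays farthest from the median. Leaving out such arrays tends to lower r, so the drop does not settle what the relation rests on. The Pfkp pair had r = 0.72 and rho = 0.55 (unadjusted permutation p = 0.0376 and 0.0722, adjusted 0.0602 and 0.115), and r was 0.44 without Exercised 7 and Sedentary 17. The 3 Pgk1 pairs had r of -0.43 to 0.38 and rho of -0.43 to 0.38, none of them past the threshold (adjusted permutation p of 0.179 to 0.308 for r and 0.217 to 0.337 for rho). Probe sets of 1 gene share the array and, for the pairs named alike, the target sequence.

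Of 3 pairs of a muscle isoform and another isoform of the same step, all from phosphofructokinase and mutase and with Pfkm in 2 of them, none passed the test, and the estimate was negative in 2. On each array the log2 value of the other isoform's probe set was taken from that of the muscle isoform. Only the change of this value between groups is read, since probe sets differ in brightness for reasons other than RNA level. That change can still depend on how the arrays are scaled, as given below for Pfkm minus Pfkl. Pfkm minus Pfkl was 2.50 ± 0.10 in Exercised and 2.64 ± 0.09 in Sedentary samples (SD, n = 6 each), a difference of -0.14 ± 0.057 (SE, 95% interval -0.26 to -0.02, exact two-sided permutation p = 0.039, adjusted over the 3 pairs 0.117). The Exercised arrays lay between 2.33 and 2.64, and the Sedentary arrays between 2.63 and 2.72 apart from Sedentary 17 at 2.46. Without Sedentary 17 the difference was -0.18 (exact permutation p adjusted over the pairs 0.0195), and without Exercised 7 it was -0.17 (0.039), so the call depends on which arrays are used. Under quantile normalization of all arrays it was -0.22 (0.013), so the call depends on the scaling too. There Pfkm U25651_at went from -0.06 to -0.14, and Pfkl from 0.08 to 0.07. With the other Pfkm probe set and the main scaling, Pfkm minus Pfkl was -0.14, and there the exact permutation p was 0.277 before adjustment.

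Pgam2 minus Pgam1 was 0.07 ± 0.16 in Exercised and 0.18 ± 0.17 in Sedentary samples (SD, n = 6 each). The difference was -0.11 ± 0.095 (SE, 95% interval -0.32 to 0.09, exact permutation p = 0.26, adjusted 0.39). With the other Pgam1 probe sets it was -0.17 for S63233_g_at and -0.31 for rc_AI169417_s_at, with an exact permutation p of 0.0476 before adjustment and 0.0714 after it. Pfkm minus Pfkp was 2.49 ± 0.10 in Exercised and 2.47 ± 0.28 in Sedentary samples (SD, n = 6 each), a difference of 0.03 ± 0.120 (95% interval -0.17 to 0.30, exact permutation p = 0.952, adjusted 0.952). Sedentary 17, at 1.91, lay far below the other Sedentary arrays at 2.50 to 2.64, and without it the difference was -0.08 (adjusted 0.169). The smallest p that 924 regroupings of the 12 arrays can give is 0.00216. By class, 1 of 3 muscle-enriched genes and 3 of 6 broadly used genes were higher by sign, with median log2 differences of -0.06 and 0.01, on 1 probe set a gene. Without Sedentary 17, 1 of 3 and 2 of 6 were higher, with medians of -0.10 and -0.02.

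The enolases were not among the pairs tested, since Eno1 is not one of the 10 genes, and they are described here after their values were seen. Eno3 minus Eno1 on X02610_g_at lay between -1.41 and -0.69 in Exercised and between -1.36 and -0.87 in Sedentary samples, a difference in means of 0.13. On X02610_at it lay between -1.26 and -0.43 in Exercised and between -1.19 and -0.62 in Sedentary samples, a difference in means of 0.29. Both differences were positive, opposite in sign to those of Pfkm against Pfkl and Pgam2 against Pgam1, and the groups overlapped for both.

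**Figure D3:**
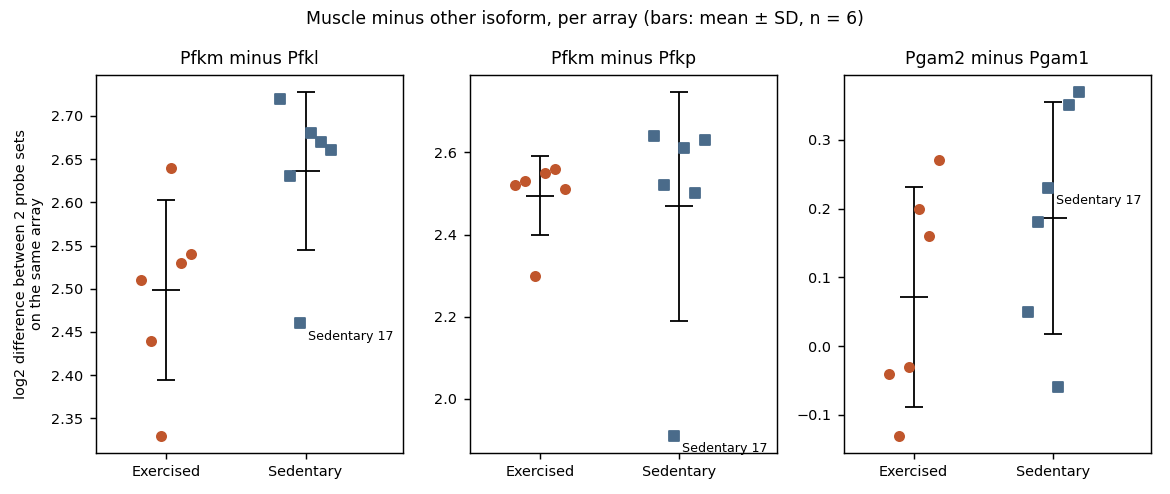
Difference in log2 value between the muscle isoform's and the other isoform's probe set on each array (vertical axis, log2), for 3 pairs, with 6 Exercised arrays (circles, left) and 6 Sedentary arrays (squares, right), mean and SD. For Pfkm minus Pfkl, 5 Sedentary arrays lie at 2.63 or above and Sedentary 17 lies at 2.46, inside the Exercised range.

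The measured genes in the rest of the pathway and among its neighbours gave the same count. Of 70 listed genes 34 were measured, with 6 of 18 other enzymes of glycolysis, 7 of 17 glycogen genes and 9 of 16 hypoxia genes. Gapdh, Gpi, Ldha and Hif1a were among those without a tested probe set naming them alone, so these lists do not cover the whole pathway. Of 34 measured genes on 5 lists, 0 passed an adjusted p of 0.05 in either direction by limma (0.413% of all genes tested, on 1 probe set a gene), and 6 had an unadjusted p under 0.05 (16.1% of all genes). By sign 12 were higher and 22 lower in Exercised samples, with a median of -0.03, against 0.003 and 51.5% higher over all 3876 genes. This split includes Sedentary 17, and the counts by list below are also given without that array where they changed.

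Among 6 other enzymes of glycolysis and lactate formation, 3 were higher and 3 lower by sign (median -0.01). Ldhb, the lactate dehydrogenase subunit that predominates in heart, had 33097 ± 2240 in Exercised and 36513 ± 2380 in Sedentary samples, a log2 difference of -0.14 ± 0.054 (limma adjusted p = 0.215), and its other probe set gave -0.12 (0.374). Eno1, the enolase of most tissues, gave 0.09 ± 0.059 (0.456) and -0.07 on its other probe set, and Hk2, the insulin-responsive hexokinase of muscle, gave -0.06 ± 0.043 (0.513) and 0.06 on its other one, which was 0.10 without Sedentary 17. The probe sets of the hexokinase Hk1 disagreed, with -0.04 ± 0.083 (0.839) on the brighter one, or 0.005 (0.985) without Sedentary 17, and 0.28 ± 0.081 (0.112) on the other, which had 3986 ± 479 in Exercised and 3207 ± 332 in Sedentary samples.

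The 6 genes that set the level of fructose bisphosphates were higher in 1 case and lower in 5 by sign (median -0.09). Without Sedentary 17, 2 were higher and 4 lower (median -0.05). Pfkfb3 and Pfkfb2, kinases that make the activator of phosphofructokinase, gave -0.16 ± 0.067 (limma adjusted p = 0.253) and -0.17 ± 0.111 (0.451), and Fbp1, the phosphatase of the reverse step, gave -0.14 ± 0.085 (0.427). Sedentary 17 had 1873, 2023 and 1419 for these genes, and the other Sedentary arrays reached at most 1500, 1112 and 936. Without it the differences of these 3 were -0.10, -0.05 and -0.05, with limma adjusted p of 0.27, 0.528 and 0.565.

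Of 7 glycogen genes 3 were higher and 4 lower by sign (median -0.01, or -0.03 without Sedentary 17). Gyg1, the protein primer of glycogen, was higher by sign on all 3 of its probe sets, at 0.15 ± 0.083 on the brightest (limma adjusted p = 0.374) and 0.25 and 0.19 on the others. Sedentary 17 was the lowest array on those 2, at 1014 and 953, and without it they gave 0.15 and 0.11 (0.417 and 0.536). The brain form of glycogen phosphorylase, Pygb, gave -0.12 ± 0.076 (0.447), and Phkg2, a catalytic subunit of phosphorylase kinase, gave -0.05 ± 0.084 (0.764), and 0.04 (0.479) without Sedentary 17. Of 9 hypoxia factors and targets 4 were higher and 5 lower by sign (median -0.01, or -0.003 without Sedentary 17). Bnip3l, a mitophagy receptor, had 4377 ± 329 in Exercised and 3874 ± 235 in Sedentary samples (0.16 ± 0.057, 0.182). Vegfa, the endothelial growth factor, gave -0.16 ± 0.064 (0.234) on its brightest probe set. Its others gave -0.02, -0.09 and -0.13, or -0.04, -0.17 and -0.17 without Sedentary 17. Epo, a dim probe set here, gave 0.09 ± 0.047 (0.375), or 0.05 (0.486) without Sedentary 17. Of 6 pentose phosphate and side branch genes 1 was higher and 5 lower by sign (median -0.04). The split was 2 higher and 4 lower without Sedentary 17, with the same median. Gpd2, the mitochondrial enzyme of the glycerol phosphate shuttle, had 1647 ± 281 in Exercised and 2045 ± 204 in Sedentary samples, a log2 difference of -0.27 ± 0.091 (limma adjusted p = 0.166), and all 6 Exercised arrays were below the Sedentary mean. Its dim probe set gave -0.02, and -0.01 without Sedentary 17. Tkt, transketolase, gave 0.08 ± 0.035 (0.282), and Akr1b1, aldose reductase, gave -0.12 ± 0.055 (0.309). The other Akr1b1 probe set gave -0.05, or -0.12 without Sedentary 17.

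**Figure D4:**
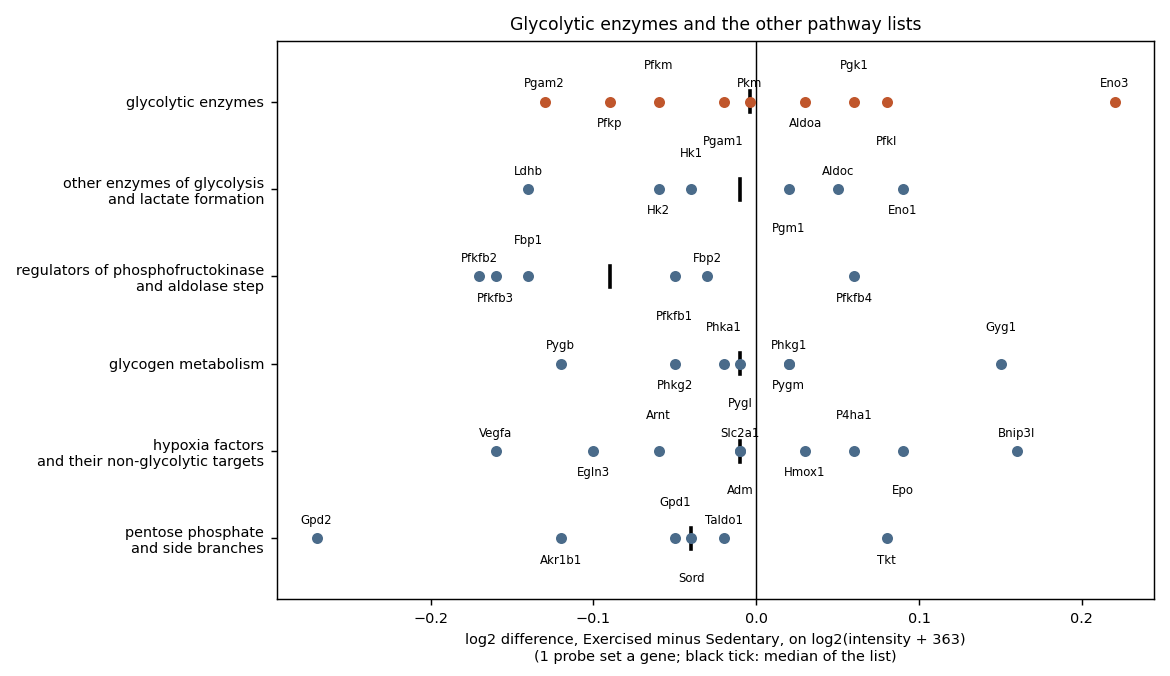
Log2 difference (horizontal axis, log2(intensity + 363) units, positive where Exercised was higher) of 9 glycolytic enzymes and of 34 genes on the 5 other lists, 1 probe set a gene, with the median of each list as a black tick. Eno3 at 0.22 is the highest point and Gpd2 at -0.27 the lowest.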

How the data were processed

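Left ventricular RNA of 6 Exercised and 6 Sedentary samples was measured on single-channel arrays, and the authors deposited an intensity per probe set on a linear scale for 8740 probe sets. How the array software corrected background, scaled arrays and called detection is not stated in the labels. The highest 2% trimmed mean of an array was 1.05 times the lowest, and no further scaling was applied.

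Groups came from the sample titles, and samples were not paired, as the titles share no number across groups. The labels name no batch. The test was limma 3.58.1 in R 4.3.3 on log2(intensity + 363), the 20th percentile of all values, for 6555 probe sets with a mean above 434, the 25th percentile of the means (lmFit, eBayes with a trend, Benjamini-Hochberg over all tested probe sets, 0.05). Isoform pairs were tested by exact permutation over samples, with Benjamini-Hochberg over 3 pairs, and their intervals come from inverting that test. Permutations for correlations kept samples within their groups (scipy 1.17.1).

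Of 8740 probe sets, 7006 named 1 gene, 308 several and 1426 none. Of the first, 6985 matched RefSeq by Entrez ID, the 15 member probe sets among them with the same symbol. Where a gene had several probe sets, the one of highest mean stood for it in lists, and members are given per probe set. Named genes were all members and, per list, up to 3 of smallest unadjusted p. Hk1 was named after its values were seen. Members and lists were chosen with earlier results of these data known. The fit was tested on simulated data. Alternatives were other pseudocounts, filters, scalings and eBayes settings, array weights, a permutation test, a threshold of 0.10 and leaving out samples. The number of arrays limits the precision.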

Additional observations from a re-analysis of the deposited data

Results flagged for a closer look

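Of 36 groups of 6 samples examined (15 probe sets and 3 isoform pairs, 2 groups each), 5 held a sample far from the others, where chance gives about 1 in 20, or 1.8. Sedentary 17 accounted for 4 of them. It had 9400 for Pfkm on U25651_at, with the other Sedentary samples at 10601 to 11243, and 2230 for Pfkp on L25387_g_at, with the others at 1437 to 1581. Its value was 2.46 for Pfkm minus Pfkl, with the others at 2.63 to 2.72, and 1.91 for Pfkm minus Pfkp, with the others at 2.50 to 2.64. Exercised 5 had 2.30 for Pfkm minus Pfkp, with the other Exercised samples at 2.51 to 2.56. The isoform values repeat the probe sets they are made of, so these are not independent. The median correlation of Sedentary 17 with the other arrays was 0.964, the lowest of the 12.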

How the results depend on the processing

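The count of glycolytic enzyme probe sets past the threshold was 0 under all 26 alternatives. The lowest limma adjusted p of a member in any of them was 0.134, for Pgam2 with array weights. Of 388 combinations of member probe set and alternative, 359 kept their sign and 29 changed it, over 7 probe sets whose differences lay near 0. The other filters, the other eBayes settings, the permutation test and the threshold of 0.10 leave the log2 difference itself as it was. No sign could change under those, so the 359 overstates how steady the signs were. Aldoa was -0.06 under quantile normalization, -0.04 with array weights and -0.09 without Sedentary 16 and 17. Pgk1 M31788_g_at was -0.02 under quantile normalization and Pkm 0.001 under median scaling. Without Exercised 4 and 5, Pfkm D21869_s_at was 0.06, Pfkp L25387_at -0.003 and Pgam1 S63233_g_at -0.04. These 2 pairs of arrays were chosen after seeing the data. Exercised 4 and 5 were low in Hbb, Sedentary 16 was high in Myl7, and Sedentary 17 correlated least with the others. With 1 array left out, Aldoa ran from -0.04 to 0.10, Pkm from -0.04 to 0.02, Pgam1 S63233_at from -0.06 to 0.03, Pgam1 S63233_g_at from -0.002 to 0.10, Pfkm D21869_s_at from -0.11 to 0.003 and Pfkp L25387_at from -0.02 to 0.04. Pfkm minus Pfkl ran from -0.18 without Sedentary 17 to -0.11 without Exercised 5. It was past the threshold without Sedentary 17, without Exercised 7 and, at -0.22, under quantile normalization (exact permutation p adjusted over the pairs 0.0195, 0.039 and 0.013). Pfkm minus Pfkp ran from -0.08 to 0.07, and was -0.05 under quantile normalization, -0.10 without Sedentary 16 and 17, and -0.07 with Pfkp L25387_at and either Pfkm probe set. Over all probe sets, 21 passed, against 32 without a filter, 50 with a filter at the median, 42 without a trend, 160 with array weights, 0 by exact permutation, 144 at a threshold of 0.10, 4 without Exercised 4 and 5 and 5 without Sedentary 16 and 17. With 1 array left out it was 3 to 37, the lowest without Sedentary 23 and the highest without Sedentary 13. The cause of these changes was not tested. No paired analysis was possible because the groups share no replicate number. Detection calls were not used here, so no probe set is called above or below background.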

Other observations

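Of the 5376 other tested probe sets that name 1 gene, those most like Pfkl over the 12 arrays, with group means taken out, were Oplah (Pearson r = 0.89), Pdlim3 (0.87), Cyb5r3 (0.85), Cdc37 (0.79) and Golga2 (0.78). They were picked as the highest of all and are given as a description. Their own log2 differences between Exercised and Sedentary samples were -0.03, 0.26, 0.08, 0.03 and 0.06, with limma adjusted p of 0.774, 0.123, 0.504, 0.853 and 0.447.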
